A study of Mus musculus with 16 samples.

Results

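PA6 is a mouse stromal line of preadipocyte character that is used as a feeder layer for embryonic stem (ES) cells. PA6 cells grown alone with BMP4 were compared with PA6 cells grown alone with FGF2, on 3 microarrays per factor, which are 6 of the 16 arrays of the series. Every culture was kept for 7 days in serum-free medium without ES cells and without serum. Per the labels FGF2 was given at 20 ng/ml and BMP4 at 10 ng/ml, as recombinant proteins, for 3 days, while other label fields speak of their presence over the whole 7 days. The methods of the study give a lower dose of BMP4 than the labels and withdraw the factor after 3 days, so the dose and the time without factor are not settled. PA6 cultures without growth factors (-GFs, 3 arrays) entered the same fit, and ES/PA6 co-cultures with BMP4 (2 arrays) or FGF2 (3 arrays) served for comparison. All cultures share 1 stromal line, so every value describes that line alone. The probes kept were those detected (detection p under 0.05) on all 3 arrays of BMP4 or on all 3 of FGF2, which left 15904 of 45281 probes, and with 1 probe per gene 11352 of 30854 target names. Just inside that limit the probe of 1700020C11RIK lay between 6.86 and 7.34 on the log2 scale over the 6 arrays, and just outside it the probe of 1810037O03RIK lay between 6.28 and 7.97.

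BMP4 binds serine/threonine kinase receptors that phosphorylate SMAD proteins, and the ID genes are classical targets of that route. FGF2 binds tyrosine kinase receptors that drive the RAS/ERK cascade, with Sprouty, DUSP and ETV genes as feedback and readout genes. In mesenchymal precursors BMP signals are known to favour commitment to the fat and bone lineages, and sustained ERK activity is known to restrain terminal fat cell differentiation. Fat cell differentiation runs through the transcription factors C/EBP and PPAR gamma to genes of lipid uptake, triglyceride synthesis and lipid droplets and to secreted adipokines.

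Values are normalized log2 intensities, so that a difference of 1 is a factor of 2. The 9 PA6 arrays detected 16904 to 18683 probes (37.3% to 41.3%), with a median raw intensity of 177.9 to 214.6. The correlation across genes was 0.971 to 0.984 within a group and 0.959 to 0.978 between BMP4 and FGF2 arrays. BMP4 replicate 1 stood apart: on the first principal component (28% of the variance) it lay at -39.65, against -15.01 and -5.70 for the other BMP4 arrays and 13.67 to 19.42 for FGF2. Of 19 PA6 stromal markers, 17 were detected on every BMP4 array and 18 on every FGF2 array, and their summed linear level was 325791 to 378604 with BMP4 and 363343 to 404796 with FGF2. None of 15 pluripotency markers was detected on every array of either factor, and their summed level was 1074 to 1356 with BMP4 and 964 to 1125 with FGF2. For 20 endothelial markers the sums were 4210 to 4994 with BMP4 and 4535 to 5778 with FGF2, with EGFL7, FLT1 and CD34 detected on every array of both factors and PECAM1, TIE1 and VWF on none, and for 18 neural markers they were 1057 to 1507 and 1027 to 1383, with NCAM1 detected on every BMP4 array and TUBB3, SOX1 and PAX6 on none of either factor. For 15 macrophage and blood markers they were 3971 to 4716 with BMP4 and 3793 to 4488 with FGF2, with CD14, LYZ and LYZ2 detected on every array of both factors and PTPRC and EMR1 on none.

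The stretches upstream of the start of 4 genes are shown. Adipoq and Cfd belong to the adipocyte genes described next, Spp1 was the called gene that fell most, and Rab15 was chosen after the search because 1 of its starts holds a SMAD palindrome. They are the 250 bases before the start in RefSeq on GRCm38.p6, at chr16:23146286-23146535 (plus strand) for Adipoq, chr10:79890603-79890852 (plus strand) for Cfd, chr5:104434861-104435110 (plus strand, the first of 2 annotated starts) for Spp1 and chr12:76813857-76814106 (minus strand, 1 of 4 annotated starts) for Rab15. Capitals mark the matched letters of CCAAT in Adipoq, of TATAAA and CCAAT in Spp1 and of GTCTAGAC, a SMAD palindrome, in Rab15, each searched on both strands.
Adipoq: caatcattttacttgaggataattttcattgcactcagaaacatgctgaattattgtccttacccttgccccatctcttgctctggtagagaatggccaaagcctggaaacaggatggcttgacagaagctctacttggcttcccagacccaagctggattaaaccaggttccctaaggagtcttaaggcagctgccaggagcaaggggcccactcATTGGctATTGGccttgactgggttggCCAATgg
Cfd: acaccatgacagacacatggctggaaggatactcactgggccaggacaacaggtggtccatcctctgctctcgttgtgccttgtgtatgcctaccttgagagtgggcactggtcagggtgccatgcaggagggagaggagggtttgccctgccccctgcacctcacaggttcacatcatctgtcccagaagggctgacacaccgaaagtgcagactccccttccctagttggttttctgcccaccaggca
Spp1: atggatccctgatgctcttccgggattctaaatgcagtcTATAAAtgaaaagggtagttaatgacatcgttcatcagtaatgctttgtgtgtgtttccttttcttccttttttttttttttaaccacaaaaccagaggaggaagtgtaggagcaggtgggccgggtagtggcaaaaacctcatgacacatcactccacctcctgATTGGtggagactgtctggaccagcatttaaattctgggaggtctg
Rab15: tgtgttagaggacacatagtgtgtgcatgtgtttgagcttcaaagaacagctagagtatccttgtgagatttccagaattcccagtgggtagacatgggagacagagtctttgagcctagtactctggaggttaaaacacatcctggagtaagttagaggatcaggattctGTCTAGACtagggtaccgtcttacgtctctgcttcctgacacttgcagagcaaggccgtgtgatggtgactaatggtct
In Adipoq the CCAAT letters occur 3 times, with first bases 34, 27 and 7 bases before the start. Of 32851 promoters of the same table (250 bases before to 50 after the start), 37.4% hold CCAAT, 13.6% TATAAA and 0.213% GTCTAGAC. The PPAR direct repeat (a pair of AGGTCA with 1 base between) was in 0.0396% of promoters, the C/EBP palindrome TTGCGCAA in 0.183%, the BMP response element GGCGCC in 11.9%, the ETS core CCGGAAGT in 3.89%, the sterol response element TCACCCCAC in 0.551%, the NF-kB site GGAATTTCC in 0.317% and the single AGGTCA, which is part of the PPAR repeat, in 16.3%. None of these 7 letter strings lies in the 4 windows shown. Outside them, among genes with a promoter in the table, VAV3 and the adipocyte genes ACSL1 and MGLL held GGCGCC, FAM107A held GGAATTTCC and ACSL1 held TCACCCCAC. A match in letters is a description of the sequence alone.

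The comparison asked which stromal transcripts differed between the factors by day 7. Genes were called at an adjusted p under 0.1 in limma and a log2 difference over 1 in size. Without regard to replicate number, 73 of 11352 genes (0.643%) were called, of which 29 (0.255%) were higher with BMP4 and 44 (0.388%) were lower with BMP4, that is, higher with FGF2. The labels state that each biological replicate held a well of every condition, and with the replicate number as a block 145 genes (1.28%) were called, 62 higher (0.546%) and 83 lower (0.731%). All 73 genes were among the 145, in the same direction. The blocked count also rested on few arrays, with 63 genes without BMP4 replicate 1 and 50 on the 6 arrays of both factors alone, 30 of them among the 73. The median difference over all genes was -0.01 and the median absolute difference 0.15, so that most of the transcriptome lay close together. Under median scaling in place of quantile normalization 176 genes were called, 50% of them higher with BMP4, against 39.7% of the 73. The count without the block rested on few arrays: it was 7 without FGF2 replicate 1, 10 without FGF2 replicate 3, 22 without BMP4 replicate 1 and 41 without BMP4 replicate 3. Of the 20 genes that rose or fell the most among the 73, GDPD2 and SERPINA3N alone were called whichever PA6 array was left out.

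Adipocyte lipid and adipokine genes held the widest differences in the comparison. Of 37 list members on the array, 23 were tested, 21 of them with a value higher with BMP4 and 2 lower. CFD alone was called without the block, and 11 were called with it, all higher with BMP4, beside 0.255% and 0.546% of all genes. Their median difference was 1.49 against -0.01 for all genes, but 8 of the 23 passed the detection filter only through the BMP4 arrays and so had to differ. Over the 15 detected on every array of both factors the median was 1.18. Of these 15, 5 were called with the block, beside 75 of the 10490 genes so detected, in either direction. In 6 of the 15 the BMP4 arrays all lay above the FGF2 arrays and in 1 all below, where 7.61% and 9.10% of all genes detected on every array of both factors did so.

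CFD encodes adipsin, a complement protease secreted by fat cells. It measured 15.92, 12.58 and 14.51 on BMP4 replicates 1 to 3, 9.23, 6.29 and 7.22 on FGF2 and 12.94, 8.63 and 8.33 without factor. Every BMP4 array exceeded every FGF2 array, while the -GFs arrays reached into the BMP4 range. On FGF2 replicate 2 CFD lay below the detection level of the array, so its difference rests partly on background. The means were 14.33 ± 1.67 and 7.58 ± 1.51 (SD, n = 3 each), a difference of 6.75 (SE 1.30, adjusted p = 0.0724, and 0.0106 with the block).

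ADIPOQ encodes adiponectin, the most abundant adipokine in blood. Its values were 15.38, 12.02 and 13.87 with BMP4, 9.77, 5.92 and 7.30 with FGF2 and 12.69, 8.04 and 8.89 without factor. Replicate 1 was the highest in each of the groups, so that the spread within a group was wide. The value of FGF2 replicate 2 lay below the detection level of its array. The difference of 6.09 had an SE of 1.36 without the block (adjusted p = 0.112) and of 0.36 with it (adjusted p = 0.00546).

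CIDEC, a lipid droplet protein that drives droplet fusion, measured 15.40, 10.96 and 12.60 with BMP4 against 8.77, 6.04 and 5.84 with FGF2, a difference of 6.10 (adjusted p = 0.138, and 0.00562 with the block). It too showed no overlap between the factors and a high replicate 1, but FGF2 replicates 2 and 3 lay below the detection level of their arrays. CIDEC thus passed the filter only through BMP4 and had to differ, and its difference rests partly on background. DGAT2, which adds the last acyl chain to triglycerides, measured 14.43, 10.14 and 12.31 with BMP4 against 8.59, 7.96 and 7.99 with FGF2, a difference of 4.11 (adjusted p = 0.130, and 0.0308 with the block). LPL, the lipase that frees fatty acids from lipoproteins, measured 13.05, 9.35 and 10.45 against 8.62, 6.43 and 7.08, a difference of 3.57 (adjusted p = 0.257, and 0.0151 with the block). On FGF2 replicate 2 LPL too lay below the detection level of the array. ACSL1, which activates long fatty acids, differed by 3.25 (adjusted p = 0.159, and 0.0427 with the block) and ORM1, an acute phase glycoprotein also made in fat, by 4.54 (0.254 and 0.0106). AGPAT9, an early enzyme of glycerolipid synthesis, was detected on no FGF2 array and was at least 8.83-fold higher with BMP4 (adjusted p = 0.177, and 0.0785 with the block).

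The remaining adipocyte genes called with the block were MGLL (a difference of 1.49), which releases the last fatty acid of a triglyceride, S3-12 (1.20), a droplet coat protein now named perilipin 4, and CES3 (2.30), a carboxylesterase. The other 12 tested members were called in neither fit. Among them the fatty acid carrier FABP5 was at 2.35, the triglyceride lipase PNPLA2 at 1.85, AGPAT2 at 1.34, the desaturase SCD1 at 1.18 and ELOVL6, a fatty acid elongase, at -0.37. Of the 14 members that did not pass the detection filter, LIPE, PLIN and AQP7 were detected on 2 BMP4 arrays and on no FGF2 array, LEP, the adipokine leptin, on no BMP4 array and on 2 FGF2 arrays, and the probe of FABP4, a usual fat cell marker, on none of the PA6 arrays. In RNA from whole cultures, fewer cells of a type and less RNA per cell cannot be told apart.

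Without BMP4 replicate 1, the array that stood apart, 8 adipocyte genes were called with the block in place of 11. The difference of ADIPOQ was then 6.51 (adjusted p = 0.00709), that of CFD 7.12 (0.0354), that of CIDEC 6.13 (0.0354), that of DGAT2 3.47 (0.0815) and that of LPL 3.41 (0.0739), while AGPAT9 was no longer called (2.70, adjusted p = 0.202). Without that array and without the block CFD was at 5.96 and no longer called (adjusted p = 0.192).

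**Figure D1:**
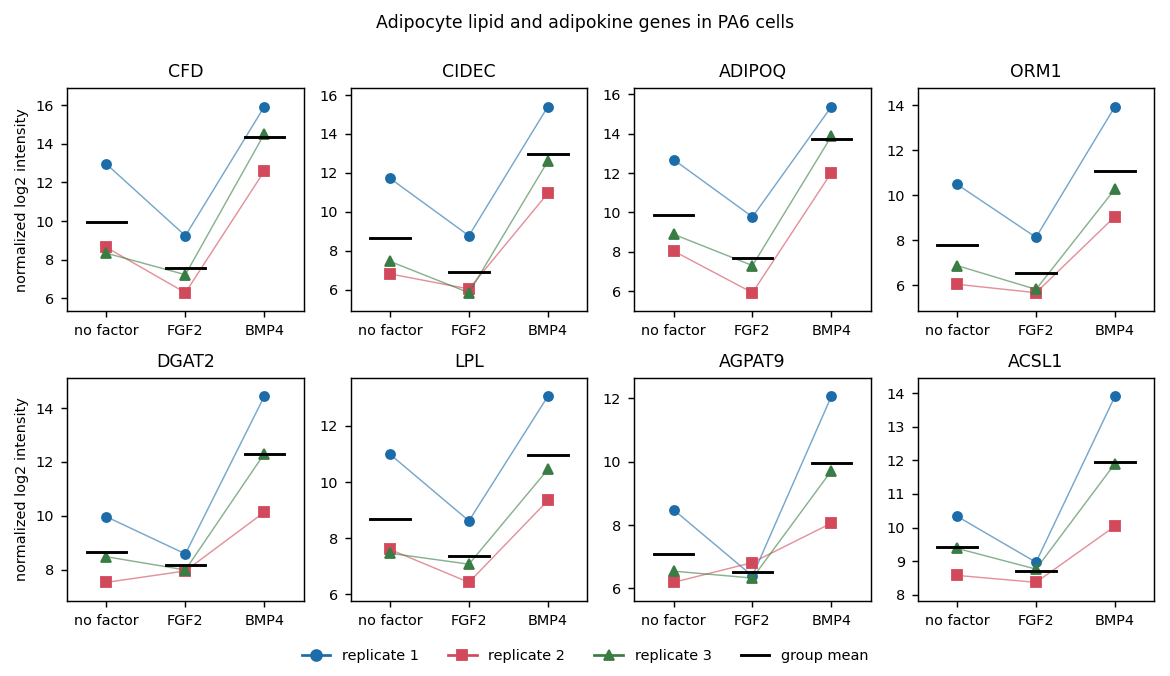
Normalized log2 intensity (y axis) of 8 adipocyte genes in PA6 cells without factor, with FGF2 and with BMP4 (x axis), 1 symbol per array, arrays of the same replicate number joined by a line and bars at the group means (n = 3). For all 8 genes every BMP4 array lies above every FGF2 array, and ADIPOQ runs from 9.77, 5.92 and 7.30 with FGF2 to 15.38, 12.02 and 13.87 with BMP4. All but DGAT2 and ACSL1 passed the detection filter only through the BMP4 arrays and so had to differ.

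The transcription factors of the fat cell programme differed less. Of 25 on the array, 20 were tested, none was called without the block and 1 with it, and their median difference was 0.19. PPARGC1B, a coactivator of nuclear receptors and of mitochondrial genes, measured 9.43, 7.46 and 7.95 with BMP4 and was undetected on the FGF2 arrays, at least 2.78-fold lower (adjusted p = 0.105, and 0.0847 with the block). PPARG, the master regulator of fat cell differentiation, measured 12.63, 10.99 and 11.41 with BMP4 against 10.05, 10.65 and 10.68 with FGF2. Those groups did not overlap, but the difference of 1.22 was not called (adjusted p = 0.242 without and 0.232 with the block). CEBPA, which acts with PPAR gamma, differed by 1.08 (adjusted p = 0.216, and 0.133 with the block), SREBF1, a regulator of fatty acid synthesis, by 0.92 and NR1H3, the oxysterol receptor LXR alpha, by 0.92. None of these 3 genes was called.

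Glutathione and detoxification genes included several wide differences. Of 31 tested, 2 were called without the block and 4 with it, all higher with BMP4, beside 0.255% and 0.546% of all genes. The median of the list was 0.24, and 0.145 over the 27 members detected on every array of both factors. ALDH1A7, an aldehyde dehydrogenase, measured 11.76, 8.77 and 10.32 with BMP4 against 7.18, 7.04 and 7.40 with FGF2, a difference of 3.08 (adjusted p = 0.0686). Without BMP4 replicate 1 its difference with the block was 2.37 (adjusted p = 0.103). FMO1, a flavin monooxygenase, was detected on all BMP4 arrays and on no FGF2 array and was at least 4.12-fold higher (adjusted p = 0.0393). GSTA3, a glutathione transferase, measured 15.43, 12.49 and 14.45 against 10.43, 8.92 and 11.41, a difference of 3.87 that was called with the block alone (adjusted p = 0.132 and 0.0106). EPHX2, the soluble epoxide hydrolase, differed by 1.11 and was likewise called with the block alone (adjusted p = 0.134 and 0.0986). AOX3, an aldehyde oxidase outside that list, was 11.21, 11.21 and 11.56 against 9.03, 8.86 and 9.89, higher by 2.07 (SE 0.26, adjusted p = 0.0257).

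Other genes among the 10 with the widest rise were of mixed function. GDPD2, a glycerophosphodiester phosphodiesterase, measured 11.78, 11.89 and 11.72 with BMP4, 8.61, 9.68 and 9.50 with FGF2 and 11.40, 11.50 and 11.51 without factor. The BMP4 arrays lay close together and near the -GFs arrays, with the FGF2 arrays below both. The difference of 2.54 (SE 0.24, adjusted p = 0.0175) was called without each array in turn. FAM107A, an actin-associated protein, had the same order, with 9.98, 10.14 and 10.28 against 6.27, 8.38 and 7.59 and 9.71, 9.86 and 10.05 without factor, a difference of 2.72 (adjusted p = 0.0487). Its value on FGF2 replicate 1 lay below the detection level of that array.

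GYS2, the liver type of glycogen synthase, measured 9.67, 7.62 and 7.88 with BMP4 and was undetected on the FGF2 and the -GFs arrays, at least 3.00-fold higher than with FGF2 (adjusted p = 0.0525). DOC2B, a calcium sensor of vesicle release, was likewise detected with BMP4 alone, at 7.98, 7.12 and 7.40, at least 1.62-fold higher than with FGF2 (adjusted p = 0.0257). CAMP, the cathelicidin antimicrobial peptide, differed by 2.62 (adjusted p = 0.0983), and LOC100048434, a target name without a current symbol, was undetected with FGF2 and at least 4.28-fold higher with BMP4 (adjusted p = 0.0525).

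Of the genes lower with BMP4, the 10 that fell most are described here. SPP1 encodes osteopontin, a secreted phosphoprotein of bone and of inflamed tissue. It measured 8.46, 9.65 and 10.00 with BMP4, 12.27, 12.44 and 11.97 with FGF2 and 9.71, 10.08 and 8.80 without factor. The FGF2 arrays stood above both other groups, which overlapped. The means were 9.37 with BMP4 and 12.22 with FGF2, a difference of -2.85 (SE 0.42, adjusted p = 0.0393).

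SERPINA3N, a secreted protease inhibitor of the acute phase, was 9.27, 8.60 and 8.54 with FGF2 and undetected on every BMP4 and -GFs array, at least 3.87-fold lower with BMP4 (adjusted p = 0.0175). It was called without each array in turn. SERPINA3H was undetected with BMP4 and at least 2.21-fold lower (adjusted p = 0.0257), and SERPINA3G (-1.12) was called with the block alone (adjusted p = 0.0710). The members of this serpin cluster are close paralogs, and a probe may take up signal of a neighbour.

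C1QTNF3, an adiponectin paralog that is secreted by mesenchymal cells, measured 9.68, 10.31 and 10.24 with BMP4 against 11.25, 12.61 and 11.63 with FGF2, a difference of -1.75 (adjusted p = 0.0761). ITGBL1, a secreted protein with integrin-like repeats, differed by -2.08 (adjusted p = 0.0487), and FLRT2, a membrane protein that binds FGF receptors and Unc5, by -1.74 (adjusted p = 0.0493). KCNJ15, an inward rectifier potassium channel, was 8.45, 9.72 and 8.24 with FGF2 and undetected with BMP4, at least 3.87-fold lower (adjusted p = 0.0630). VAV3, a signalling protein, differed by -2.07 (adjusted p = 0.0525), RAB15, a small GTPase of endosomes, by -1.85 (adjusted p = 0.0285), and CRYGD, a crystallin, was undetected with BMP4 and at least 1.68-fold lower (adjusted p = 0.0257).

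Inflammatory groups pointed both ways. Of 20 acute phase, complement and inflammatory genes tested, 3 were called without the block, the lower SPP1, SERPINA3N and SERPINA3H. Of all genes 0.388% were so called lower. The median was -0.40, and -0.27 over the 15 members detected on every array of both factors. Of the rest 4 passed the detection filter only through FGF2, SERPINA3N and SERPINA3H among them, and 1 only through BMP4. With the block 5 were lower and 3 higher, beside 0.731% and 0.546% of all genes, and 4 of these calls were among the 15. The higher ones were ORM2 (3.88, adjusted p = 0.0812 with the block), the lipocalin LCN2 (2.72, 0.0988) and haptoglobin, HP (1.09, 0.0689), proteins that liver and fat secrete in the acute phase, and the added lower ones were SERPINA3G and the interleukin receptor chain IL13RA1 (-1.92, 0.0654). LCN2 measured 15.91, 12.30 and 13.79 with BMP4 against 11.02, 11.26 and 11.57 with FGF2. Without BMP4 replicate 1, LCN2 stood at 1.91 and ORM2 at 3.17 and neither was called (adjusted p = 0.192 and 0.233 with the block).

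Of 10 stromal chemokines tested none was called without the block, and 3 were lower with BMP4 with it, beside 0.731% of all genes. Only 8 of the 10 were detected on every array of both factors, and 2 of the 3 calls were among these. CCL2, which attracts monocytes, measured 9.64, 9.56 and 9.98 against 11.42, 10.55 and 11.01 with FGF2 (a difference of -1.27, adjusted p = 0.110, and 0.0368 with the block), and the groups did not overlap. CCL11, which attracts eosinophils, differed by -1.19 (0.218 and 0.0411) and CCL5 by -1.61 (0.333 and 0.0890), while CCL7 stood at -0.87, below the limit on size. Of 19 interferon response genes none was called without the block and 2 were lower with it, beside 0.731% of all genes. These were IFI30, a lysosomal thiol reductase (-1.10, adjusted p = 0.124, and 0.0215 with the block), and IFI205 (-1.02, 0.609 and 0.0761), whose groups overlapped. The median of the list was -0.25.

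**Figure D2:**
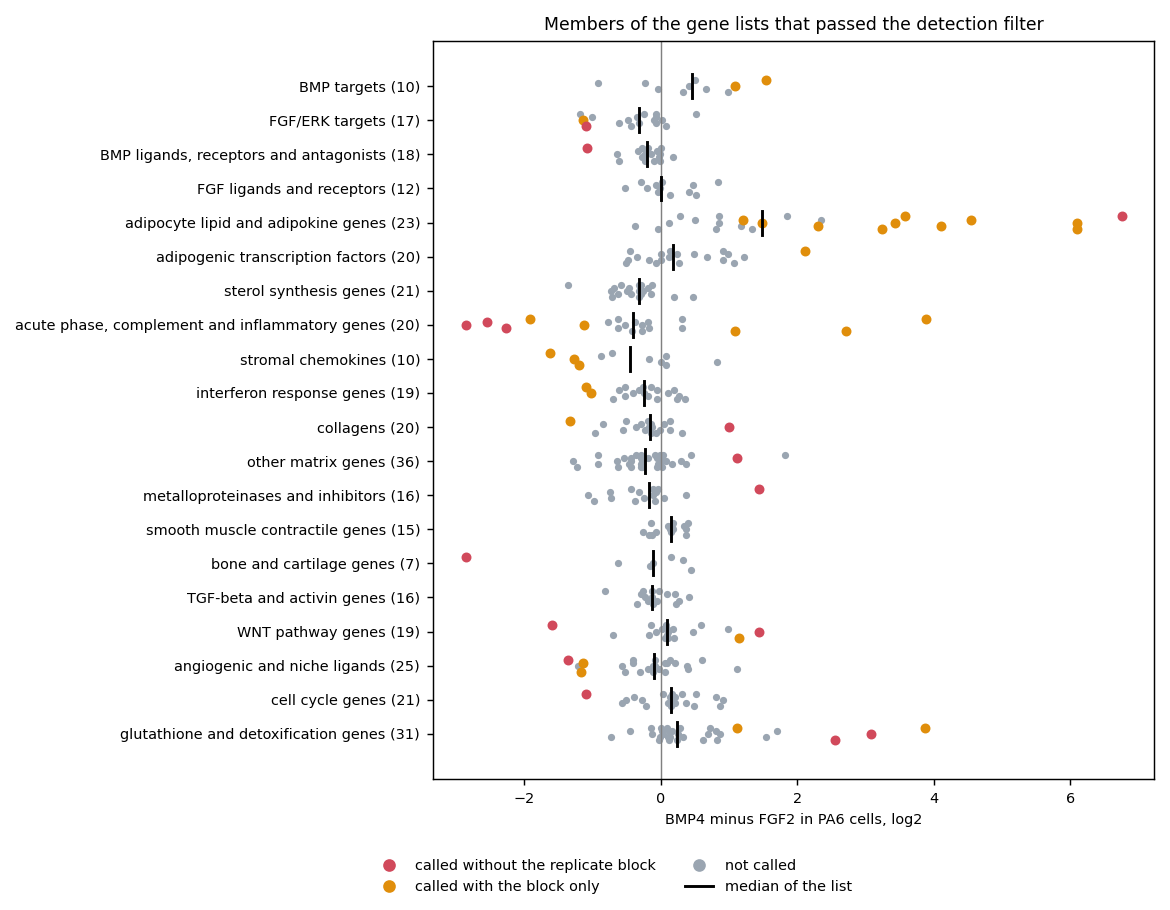
Difference of BMP4 minus FGF2 in PA6 cells on the log2 scale (x axis) for every tested member of 20 gene lists (y axis, number tested in brackets), with black bars at list medians and colours for genes called without the replicate block, with it only, or not called. The adipocyte list reaches from -0.37 to 6.75 with a median of 1.49, or 1.18 over members detected on every array of both factors. The medians of the other lists lie between -0.44 and 0.47, and that of the chemokines moves from -0.44 to -0.08 over the 8 members so detected.

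The factors' own pathways were read through their targets, ligands and receptors. Of 21 BMP target genes on the array, 10 were tested, 7 of them at a higher value with BMP4, none called without the block and 2 with it, and the median was 0.47. ID1, an inhibitor of basic helix-loop-helix factors, measured 10.29, 8.26 and 9.77 with BMP4, 8.01, 7.23 and 8.47 with FGF2 and 7.79, 7.59 and 9.07 without factor. Its groups overlapped, and the difference of 1.54 passed with the block alone (adjusted p = 0.334 and 0.0966). ID4 measured 11.26, 11.09 and 11.33 against 9.61, 10.70 and 10.10, a difference of 1.09 (0.163 and 0.0975). Without BMP4 replicate 1 no tested BMP target was called with the block, and ID1 was at 1.05 (adjusted p = 0.140).

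ID3 ran the other way. It measured 8.35, 8.94 and 8.84 with BMP4, 9.45, 9.79 and 9.64 with FGF2 and 8.43, 8.80 and 8.50 without factor, so that the FGF2 arrays lay above all others. The difference of -0.92 had an adjusted p of 0.0800, and 0.0245 with the block, and missed the limit on size. HEY1, a Notch and BMP target, was at 0.99 (adjusted p = 0.197), SNAI2 at 0.51 and the inhibitory SMAD6 at 0.42, none of them called. SMAD7, BAMBI, NOG and MSX2, further feedback genes and targets of this route, were detected on no array of either factor.

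Of 24 FGF/ERK target genes 17 were tested, 14 of them at a lower value with BMP4, and the median was -0.32. CCND1, the G1 cyclin that ERK signals induce, measured 12.66, 13.27 and 13.27 with BMP4, 13.98, 14.20 and 14.30 with FGF2 and 12.74, 13.38 and 13.42 without factor, a difference of -1.10 (SE 0.23, adjusted p = 0.0913). Every FGF2 array exceeded every other PA6 array. The transcription factor ETV1 (-1.13) was called with the block alone (adjusted p = 0.113 and 0.0828), and JUN (-1.18, adjusted p = 0.132), ETV5 (-0.61) and the ERK inhibitors SPRED1 (-0.48) and SPRY3 (-0.43) were not called. SPRY2 and SPRED2 were undetected on all arrays of both factors.

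Among 18 tested BMP ligands, receptors and antagonists, the transcript of BMP4 itself was the only one called in either fit. It measured 11.68, 11.76 and 11.55 in cells given BMP4 protein, 12.66, 12.99 and 12.59 with FGF2 and 12.11, 12.02 and 11.48 without factor. The difference was -1.08 (SE 0.19, adjusted p = 0.0525), with the FGF2 arrays above all others. FSTL3, which binds activin, was at -0.63, the procollagen proteinase BMP1 at -0.61 and the antagonist CHRD at -0.33, none of them called. The receptors BMPR1A (-0.28, adjusted p = 0.467) and BMPR2 (-0.06, adjusted p = 0.959) did not pass the threshold.

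Among 12 tested FGF ligands and receptors none was called in either fit. FGFR2 measured 12.44, 12.79 and 12.53 with BMP4 against 11.72, 11.94 and 11.58 with FGF2, which did not overlap. Its difference of 0.84 had an adjusted p of 0.0525, and 0.0439 with the block, and lay below the limit on size. FGFR1 was at 0.48 (adjusted p = 0.597), and the ligand FGF18 at -0.53 (adjusted p = 0.372).

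**Figure D3:**
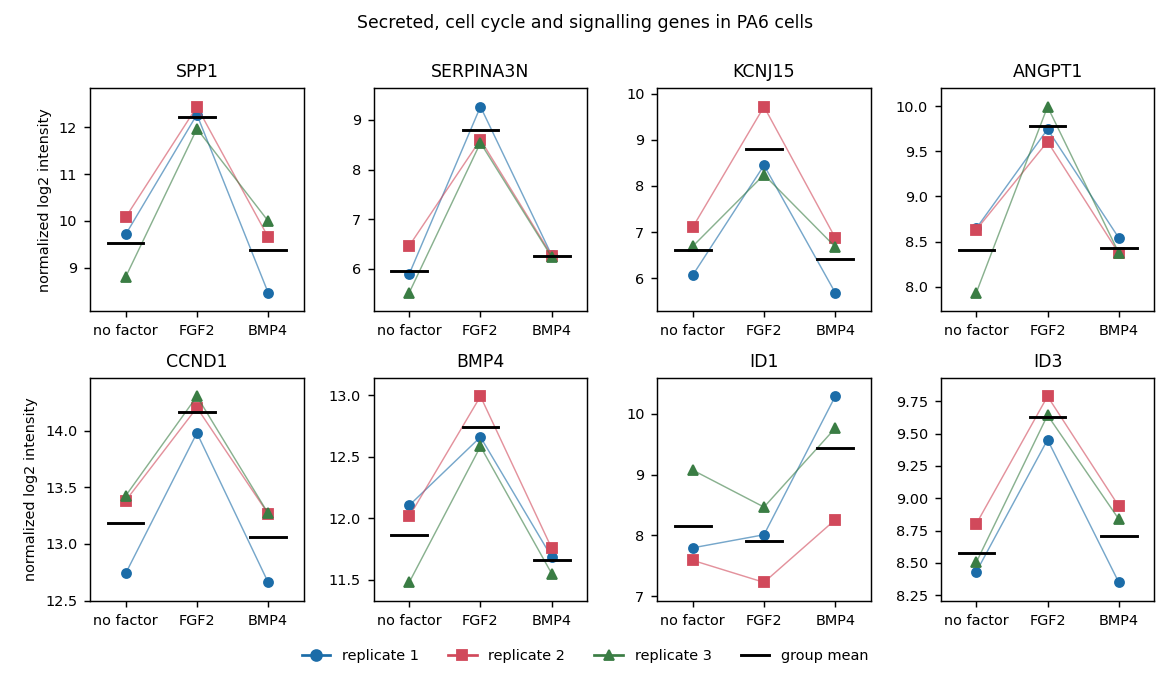
Normalized log2 intensity (y axis) of 8 secreted, cell cycle and signalling genes in PA6 cells without factor, with FGF2 and with BMP4 (x axis), 1 symbol per array, arrays of the same replicate number joined by a line and bars at the group means (n = 3). SPP1, CCND1, BMP4 and ID3 are highest on the FGF2 arrays, and ID1 rises from FGF2 to BMP4 within each replicate while its groups overlap.

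Secreted signals that stroma sends to neighbouring cells included ANGPT1, the ligand of the endothelial receptor TEK. It measured 8.54, 8.37 and 8.38 with BMP4, 9.74, 9.61 and 9.99 with FGF2 and 8.65, 8.63 and 7.93 without factor, with the FGF2 arrays above the rest. The difference was -1.35 (SE 0.20, adjusted p = 0.0403), and ANGPT1 was the only called gene of 25 angiogenic and niche ligands without the block. With the block IGF1, a growth factor (-1.13, adjusted p = 0.0339), and EFNB2, an ephrin undetected with BMP4 (at least 1.44-fold lower, 0.0526), were lower too. SEMA5A, a guidance molecule, was undetected with BMP4 and not called (adjusted p = 0.142, and 0.150 with the block).

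Of 19 tested WNT pathway genes, 2 LRP receptors were called in opposite directions. LRP4, which binds WNT antagonists and agrin, measured 10.31, 11.33 and 10.96 with BMP4 against 12.50, 12.40 and 12.46 with FGF2, a difference of -1.59 (adjusted p = 0.0525). LRP6, the coreceptor of WNT ligands, measured 9.27, 9.77 and 9.74 against 8.89, 7.88 and 7.68, a difference of 1.44 (adjusted p = 0.0815). AXIN2, a feedback target of the WNT pathway, was undetected with FGF2 and at least 1.27-fold higher with BMP4, called with the block alone (adjusted p = 0.144 and 0.0992). WNT10B, a ligand that restrains fat cell differentiation, was at 0.99 (adjusted p = 0.653).

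Matrix genes mostly did not pass the threshold. Of 20 collagens COL4A6, a basement membrane chain, was higher with BMP4 at 8.19, 8.90 and 8.63 against 7.58, 7.81 and 7.31 (adjusted p = 0.0895), COL28A1 was lower with the block alone (-1.33, 0.0636), COL15A1 was at -0.84 (0.0525) under the limit on size, and COL3A1 was at -0.97 with another probe of the gene at -0.01. Of 36 other matrix genes THBS1, an activator of latent TGF-beta, was higher at 10.94, 10.88 and 11.14 against 9.90, 9.94 and 9.75 (a difference of 1.12, adjusted p = 0.0493). Of 16 metalloproteinases and inhibitors ADAM12, a sheddase that marks mesenchymal progenitors, was higher at 9.65, 9.35 and 8.93 against 7.98, 8.30 and 7.32 (1.44, adjusted p = 0.0577). PRG4, a lubricating proteoglycan undetected with FGF2, VCAN (-1.29), DPT (-1.22), MMP3 (-1.07), PLAU (-0.97) and ADAMTS1 (-0.74) were not called in either fit.

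Some programmes showed no called gene. None of 15 smooth muscle contractile genes passed in either fit, and their values ran from -0.26 to 0.40 with ACTA2 at 0.40 (adjusted p = 0.561). The same held for 16 TGF-beta and activin genes, with INHBA, the activin A chain, at -0.81 (adjusted p = 0.150). Of 21 sterol synthesis genes 19 had lower values with BMP4 and none was called, with a median of -0.32 and MVD, a mevalonate pathway enzyme, at -1.36 (adjusted p = 0.205). Of 7 tested bone and cartilage genes SPP1 alone was called, and IFITM5 was at -0.62 and OMD at 0.44. Of 21 cell cycle genes CCND1 alone was called, while MCM5 (0.92), PLK1 (0.88) and HMGB2 (0.81) had higher values with BMP4 and did not pass.

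The study lists genes that it found modulated in PA6 cells at day 3, on other arrays, without a direction in the names used here. Of 88 tested genes of its BMP4 list, 6 were higher and 6 lower with BMP4 at day 7 without the block, and 18 and 11 with it, where 0.255% and 0.388% of all genes were called without it and 0.546% and 0.731% with it. The median of the list was 0.15, and 0.02 over the 73 genes detected on every array of both factors, since 11 passed only through BMP4. Of 365 tested genes of its FGF2 list, 7 were higher and 9 lower without the block, and 21 and 23 with it, at a median of -0.05, beside the same shares of all genes. CFD, ADIPOQ and CIDEC stand on both lists, DGAT2 on the BMP4 list and ORM1 on the FGF2 list. These lists come from the same laboratory and culture system and were taken as they stand.

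The cultures without factor show against which base each factor differed. Against -GFs, 1 gene (0.00881%) was called with BMP4, DOC2B, which was higher, and 34 genes (0.300%) with FGF2, 18 higher and 16 lower. With the block the counts were 6 (0.0529%; ADIPOQ, CIDEC, DOC2B, FMO1, LMCD1 and 3321402G02RIK) and 71 (0.625%). An unadjusted p under 0.05 was reached by 1154 genes for BMP4 and 1401 for FGF2 without the block. Both comparisons share the -GFs arrays, and whether their counts differ was not tested. For ADIPOQ the difference from -GFs was 3.88 with BMP4 (adjusted p = 0.454) and -2.21 with FGF2 (0.524), and both were called with the block (0.0506 and 0.0668). For CIDEC it was 4.32 with BMP4 (0.454), likewise called with the block (0.0506). For CFD it was 4.36 with BMP4 (0.430, and 0.105 with the block) and -2.39 with FGF2 (0.485 and 0.131). For GDPD2 it was 0.33 with BMP4 (0.659) and -2.20 with FGF2 (0.0363), for AOX3 0.25 (0.772) and -1.82 (0.0612), and for SPP1 -0.16 (0.922) and 2.70 (0.0707). For SERPINA3N, undetected in both other groups, the fitted difference of FGF2 from -GFs had an adjusted p of 0.0134.

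Co-cultures of ES cells on PA6 hold RNA of both kinds of cells, and the same contrast was set against them in 1 fit over all 16 arrays. In 97 genes (0.854%) BMP4 minus FGF2 differed between PA6 alone and co-cultures, 23 with a more positive and 74 with a more negative value in PA6 alone. With the replicate block within each kind of culture there were 349 (3.07%). Of the 73 genes called in PA6, 20 were among them. RAB15 was at -1.85 in PA6 and 0.71 in co-cultures (difference of differences -2.56, adjusted p = 0.00858). VAV3 was at -2.07 and 0.42 (-2.48, 0.0567), ITGBL1 at -2.08 and -0.08 (-1.99, 0.0731) and FAM107A at 2.72 and 0.20 (2.52, 0.0854). The count of 97 rested on single arrays: it was 57, 36, 60, 32 and 13 without PA6 BMP4 replicate 1, FGF2 replicates 1 and 2, BMP4 replicate 3 and FGF2 replicate 3, and 154, 20, 14 and 157 without co-culture BMP4 replicates 1 and 2 and FGF2 replicates 2 and 3. SERPINA3H, CRYGD and LOC100048434 differed as well, but each was undetected with 1 factor in PA6, so that their fitted differences rest on background values there. FAM107A was undetected on FGF2 replicate 1 of PA6. The 7 genes stayed called with the block, and FMO1 (1.91, adjusted p = 0.0210) and FLRT2 (-1.94, 0.0860) were called with it alone. FMO1 was undetected on the FGF2 arrays of PA6, so that its value rests on background there too.

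For ID3 the values were -0.92 in PA6 alone and 1.32 in co-cultures, a difference of -2.24 (adjusted p = 0.0143). For ANGPT1 they were -1.35 and 0.44 (-1.80, 0.0558), for LRP4 -1.59 and 0.61 (-2.19, 0.0379) and for CCND1 -1.10 and 0.51 (-1.61, 0.0567). Each of these 4 genes was called with the block too. No adipocyte lipid or adipokine gene was among the 97, and LPL and ORM1 were among the 349 with the block. ADIPOQ stood at 6.09 in PA6 alone and 4.39 in co-cultures (difference 1.70, adjusted p = 0.790) and CFD at 6.75 and 4.19 (2.57, 0.656).

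**Figure D4:**
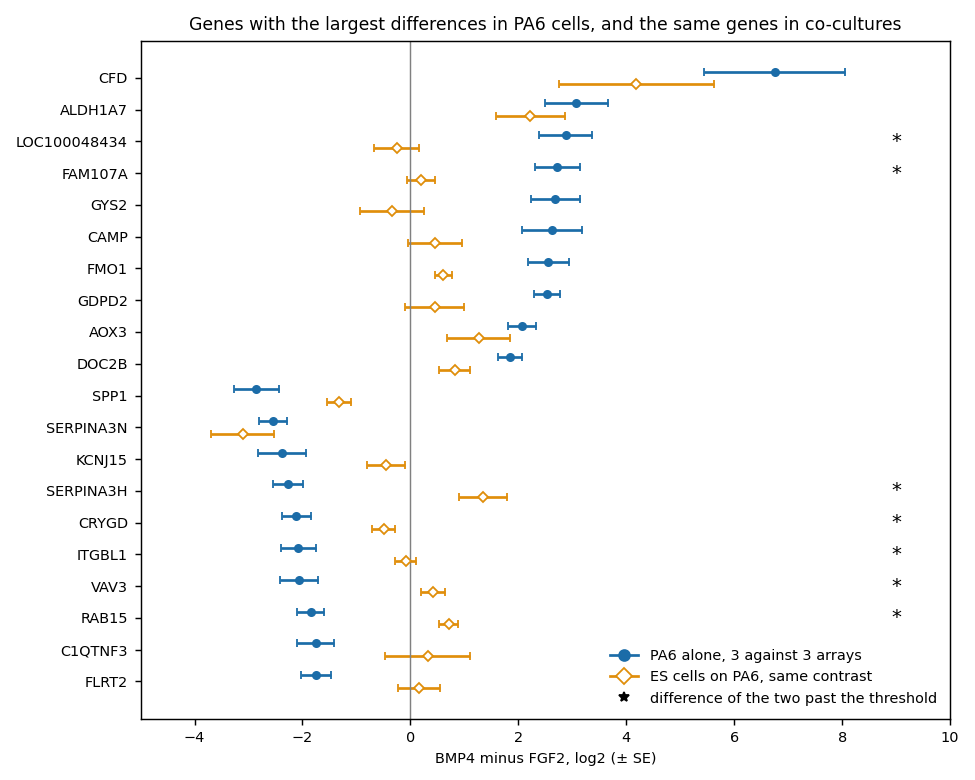
BMP4 minus FGF2 on the log2 scale with its SE (x axis) for the 10 called genes that rose most and the 10 that fell most in PA6 cells (y axis), in PA6 alone (filled circles, 3 against 3 arrays) and in ES/PA6 co-cultures (open diamonds, 2 against 3 arrays). Stars mark the 7 genes whose difference between the kinds of culture passed the threshold, such as RAB15 at -1.85 and 0.71, while CFD lies at 6.75 and 4.19 without a star. LOC100048434, GYS2, FMO1, DOC2B, SERPINA3N, KCNJ15, SERPINA3H and CRYGD were undetected with 1 factor in PA6, and their points there are fitted values against background.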

How the data were processed

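Total RNA of each culture was hybridized to an Illumina MouseWG-6 v2.0 BeadChip. The authors deposited an average bead intensity per probe and array that was not normalized, with a detection p-value per the file headers, from GenomeStudio 2011.01. A genome build for the probes is not given in the sources used here. The neqc function of limma 3.58.1 (R 4.3.3) subtracted background by normexp, with detection p-values standing in for control probes, added an offset of 16, quantile normalized all 16 arrays together and took log2. Each gene was read from its probe with the largest mean. Target names follow the array's old annotation, and 9607 (84.6%) of the tested names matched a RefSeq symbol or synonym (GRCm38.p6). Of 20 genes named by size and 11 adipocyte genes called with the block, 15 and 5 had a promoter in the RefSeq table. Where no array of a group detected a gene, the fold is a bound, the mean of the other group against the detection level of those arrays.

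The 9 PA6 arrays entered 1 linear model of limma with moderated variances, with Benjamini-Hochberg adjustment over all tested genes and the thresholds of the study's methods. The test was checked on simulated data. The block used the replicate number: the labels place a well of each condition in every biological replicate, and in all 9 pairs of PA6 arrays with the same number the deviations from group means correlated at 0.117 to 0.272, against -0.199 to -0.013 for the 18 other pairs. Deviations cancel within a group, so the negative values follow on average from the positive ones and are no separate evidence. Blocked values stand beside results whose call they change. The number of arrays limits the precision.

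Named were the 10 called genes that rose most and the 10 that fell most, up to 4 genes per list with the largest differences (up to 8 for BMP, FGF/ERK, adipocyte and adipogenic lists) and the main receptors. HP, IL13RA1, SERPINA3G, EPHX2, MGLL, S3-12, CES3 and other list members beyond that were named after their values were seen. The comparison, the 27 gene lists and the rules were chosen with earlier results of these data known, and the TATA box, the CCAAT box and the PPAR single site were added to the motifs later. Alternatives covered background correction, scaling, offset, filter, variance prior, thresholds, the block and each array left out.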

Additional observations from a re-analysis of the deposited data

Results flagged for a closer look

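The contrast of BMP4 with FGF2 differed between PA6 cells alone and ES/PA6 co-cultures in 97 genes by the interaction term in limma. Among the genes with the largest differences in PA6 cells, the difference of differences was 3.13 for LOC100048434 (adjusted p = 0.0920) and 2.52 for FAM107A (0.0854), with the larger value in PA6 alone. It was -3.60 for SERPINA3H (0.0269), which was higher with BMP4 in co-cultures, -1.62 for CRYGD (0.0937), -1.99 for ITGBL1 (0.0731), -2.48 for VAV3 (0.0567) and -2.56 for RAB15 (0.00858). LOC100048434 was undetected with FGF2 in PA6, and SERPINA3H and CRYGD with BMP4, so that their values rest on background intensities on that side. The value of FAM107A does so in part, through FGF2 replicate 1. The co-cultures held 2 arrays with BMP4 and 3 with FGF2, and the share of stromal RNA in them moved with the kind of culture: the summed level of 19 PA6 stromal markers was 72073 to 108448 in these co-cultures and 325791 to 404796 in PA6 alone with a factor. The part of that share in the differences was not tested.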

How the results depend on the processing

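The 73 calls depended on the setting. With the replicate block there were 145, with the replicate as a random effect, added after seeing the data, 117, with the 6 arrays of both factors alone 35, under median scaling 176 (68 of the 73 among them), without background correction 46 (50% higher with BMP4), with detection required on all 6 arrays 36, without the detection filter 2 of 30854 genes tested, at an adjusted p under 0.05 26 and without a minimum fold change 120. Leaving out 1 PA6 array gave 7 to 93, the lowest without FGF2 replicate 1 and the highest without BMP4 replicate 2, where 55.9% were higher with BMP4. Leaving out a replicate number with the block gave 14 (number 1), 48 (number 2) and 16 (number 3). Of the 20 genes named by size, GDPD2 and SERPINA3N kept their call when each PA6 array was left out in turn, and none changed the direction of its PA6 difference under any alternative run. The cause of these shifts was not tested.

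The 97 differences from co-cultures became 349 with the replicate block within each kind of culture, 63 under median scaling and 13 to 157 with 1 array left out, lowest without PA6 FGF2 replicate 3 and highest without co-culture FGF2 replicate 3. Without co-culture BMP4 replicate 1 the differences of ALDH1A7 (-0.22) and AOX3 (-0.31) turned sign, and without co-culture BMP4 replicate 2 they were 1.93 and 1.91. The difference of BMPR2 in PA6, near 0, ran from -0.24 without FGF2 replicate 2 to 0.14 without BMP4 replicate 1 when 1 array was left out of the fit without the block. It was 0.04 and 0.02 without FGF2 replicates 1 and 3, and with the block 0.24 without replicate number 1 and 0.24 without BMP4 replicate 1.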
